A study of Mus musculus with 10 samples.

Results

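The S100 genes *S100a4*, *S100a6*, *S100a10* and *S100a11*, the annexins *Anxa1*, *Anxa2* and *Anxa6*, the galectins *Lgals1* and *Lgals3*, and *Crip1* belong to families whose transcripts are often higher in effector and memory T cells than in naive T cells. These 10 genes were followed here across sorted CD4+ T-cell populations. They were chosen by name, as the rows of these symbols among 48321 gene symbols in the count files, of which 28262 had a count in any library. The 10 genes and the lists used below were chosen with earlier results of these data known. Counts over them describe the data and are no independent test. All 10 passed the filter on low counts, which left 13796 genes to be tested. *S100a4* passed it through the KO FoxP3-CD25- libraries alone, so a higher level in that group was a condition of testing it. Its values against that group are given as a description. Where it enters the main counts of genes called, those at an unadjusted p under 0.05 or the medians over all libraries, these are also given without it. Other counts against that group include it, among them those of highest means, of groups without overlap and of other settings.

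RNA-seq was performed on 10 libraries of spleen CD4+ T cells from C57BL/6 mice, all carrying a GFP reporter of *Foxp3*. Cells were sorted by GFP, written here as FoxP3+ or FoxP3-, and by surface CD25. Mice labelled KO were *Satb1* F/F:*Thpok-cre*, in which the Cre acts once thymocytes have committed to the CD4 lineage and before *Foxp3* is expressed, a design meant to delete *Satb1* from Treg and non-Treg cells alike. Mice labelled WT are described no further in the labels, and the mice of the study were adults of both sexes. Each of 5 groups held 2 libraries. FoxP3+CD25+ cells, the Treg gate, and FoxP3-CD25- cells, the non-Treg gate, came from WT and from KO mice, and FoxP3+CD25- cells came from KO mice alone. The numbers in the labels were read as 2 mice of each genotype, as their wording implies without saying so, and the p-values measure the spread between these libraries.

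S100 proteins are small calcium-binding proteins that act mostly as dimers. S100A10 and S100A11 bind annexins, which are calcium-dependent phospholipid-binding proteins of the plasma membrane and endosomes, and S100A10 with ANXA2 forms a heterotetramer that links membrane to the actin cytoskeleton through AHNAK. Galectins are lectins that bind beta-galactosides on glycoproteins and can cross-link T-cell surface receptors, and CRIP1 is a small protein with a LIM zinc-finger domain. Several transcripts of these families, though not all, are lower in naive T cells and rise together with *Cd44* and *Itgb1* when T cells have met antigen.

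Counts on genes were 6094952 to 12410064 per library, and 3 counts, the limit that a count of 0 allows, were 0.242 to 0.492 CPM, the counts scaled to a common library size. The 10 genes together held 0.0743% to 0.158% of the counts on genes. *Foxp3* was 318 to 739 CPM in the FoxP3+ libraries and 18.0 to 38.9 CPM in the FoxP3- libraries. *Satb1*, the targeted gene, was 534 to 1186 CPM in the libraries labelled KO and 379 to 881 CPM in those labelled WT. These ranges pool the gates, and the highest value was from KO FoxP3+CD25- cells, a gate without a WT group. In the FoxP3-CD25- gate KO and WT overlapped, with a KO library the lowest. In the FoxP3+CD25+ gate both KO libraries were higher. Counts over a whole gene cannot show the loss of a part of it. WT and KO are therefore the labels of the libraries throughout. WT replicate 1 differed in sex from the other mice: its libraries had *Xist* at 14487 and 16362 counts and none from the chromosome Y genes examined, where the other 8 libraries had 0 to 4 and 3039 to 4750. CD4 T-cell markers summed to 2891 to 3774 CPM, and Treg markers to 2848 to 3590 CPM in FoxP3+CD25+ libraries, 457 and 613 CPM in KO FoxP3+CD25- libraries and 123 to 304 CPM in FoxP3-CD25- libraries.

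The S100 genes lie on chromosome 3 in a pair of neighbourhoods of the GRCm38 assembly, the build of the count files. *S100a4* (90603771 to 90606045) ends 6836 bases before *S100a6* (90612882 to 90624181), and *S100a11* (93520488 to 93526287) ends 28792 bases before *S100a10* (93555080 to 93564643), all on the plus strand. The 250 bases before the start site are shown for the S100 genes that were called below and have an entry in the RefSeq promoter table (GRCm38.p6), and for *Anxa2*, whose levels followed another order across the groups. Of the 10 genes, 7 had an entry, and *S100a10*, *Anxa6* and *Lgals1* did not. Capitals mark matches on either strand to the letters of a TATA box (TATAAA), an AP-1 element (TGANTCA), a RUNX element (TGTGGT) and an SP/KLF element (GGGCGG).
S100a4, chr3:90603520-90603769, plus strand: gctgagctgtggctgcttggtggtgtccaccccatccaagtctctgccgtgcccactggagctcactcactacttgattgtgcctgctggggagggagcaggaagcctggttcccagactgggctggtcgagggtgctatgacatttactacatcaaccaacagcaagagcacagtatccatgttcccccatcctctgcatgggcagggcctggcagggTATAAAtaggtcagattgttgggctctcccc
S100a6, chr3:90612644-90612893, plus strand: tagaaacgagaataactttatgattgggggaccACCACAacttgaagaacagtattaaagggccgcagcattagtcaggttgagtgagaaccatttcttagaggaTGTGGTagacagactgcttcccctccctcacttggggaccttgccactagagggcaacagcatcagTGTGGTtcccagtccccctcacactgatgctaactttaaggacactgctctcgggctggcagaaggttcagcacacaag
S100a11, chr3:93520246-93520495, plus strand: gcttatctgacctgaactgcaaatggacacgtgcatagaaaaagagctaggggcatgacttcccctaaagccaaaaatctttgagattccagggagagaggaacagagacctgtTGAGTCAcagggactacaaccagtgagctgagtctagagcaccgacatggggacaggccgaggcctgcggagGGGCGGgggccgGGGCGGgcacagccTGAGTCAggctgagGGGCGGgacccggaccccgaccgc
Anxa2, chr9:69453433-69453682, plus strand: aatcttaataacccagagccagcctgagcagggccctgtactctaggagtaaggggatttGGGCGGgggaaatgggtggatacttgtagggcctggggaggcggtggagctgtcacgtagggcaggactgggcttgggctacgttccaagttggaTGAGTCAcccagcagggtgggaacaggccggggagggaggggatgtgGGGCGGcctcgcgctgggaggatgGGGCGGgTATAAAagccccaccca
The *S100a4* window held a TATA box that began 31 bases before the start, the *S100a6* window held 3 RUNX matches, the *S100a11* window 2 AP-1 and 3 SP/KLF matches, and the *Anxa2* window matches to all but the RUNX element. Among 32851 windows of the same length in the table, 12.4% held the TATA letters, 6.75% the AP-1 letters, 14% the RUNX letters and 32.7% the SP/KLF letters. No motif was present in all 4 windows, and the matches are letters only and no evidence of binding.

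Per exon length, the 10 genes spanned a wide range of levels. *Anxa6*, which is abundant in lymphocytes, had the highest median over the libraries, 212 CPM per kb, followed by *S100a10* with 137 and *Lgals1* with 62.6 CPM per kb. *S100a11* (31.3), *Crip1* (24.2), *Anxa2* (15.4) and *S100a6* (7.66 CPM per kb) were intermediate, and *S100a4* (0.688), *Lgals3* (0.685) and *Anxa1* (0.401 CPM per kb) were at the edge of detection, with 26 counts at most in any library. These last 3 genes are limited by depth. For *S100a4*, 51.7% of exon bases are shared with *Gm42674* on the same strand, which had 0 counts in every library, so reads on the shared bases cannot be assigned and its level is uncertain. *Anxa2* shares 2.63% of its exon bases with *Gm16144* on the other strand.

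**Figure D1:**
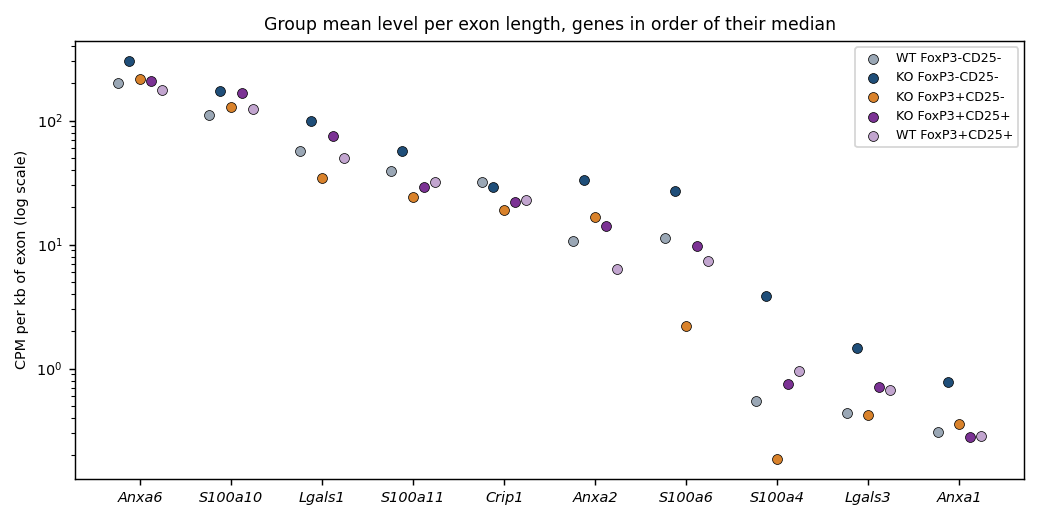
Group means in CPM per kb of exon (log axis) for each of the 10 genes, ordered by their median over the 10 libraries, with a dot for each of the 5 groups. Medians run from 212 CPM per kb for *Anxa6* to 0.401 CPM per kb for *Anxa1*, and the KO FoxP3-CD25- dot is the highest for 9 of 10 genes.

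Across the groups, 9 of the 10 genes had their highest mean in KO FoxP3-CD25- cells, *Crip1* being the exception. *S100a4* is among the 9, and its higher level there was a condition of testing it. The lowest mean was in KO FoxP3+CD25- cells for 6 of 10. In bulk samples, fewer cells that express a gene and less RNA per cell cannot be told apart, which holds for every difference below. The KO FoxP3-CD25- libraries enter 4 of the comparisons that follow, and these are therefore not independent of each other.

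**Figure D2:**
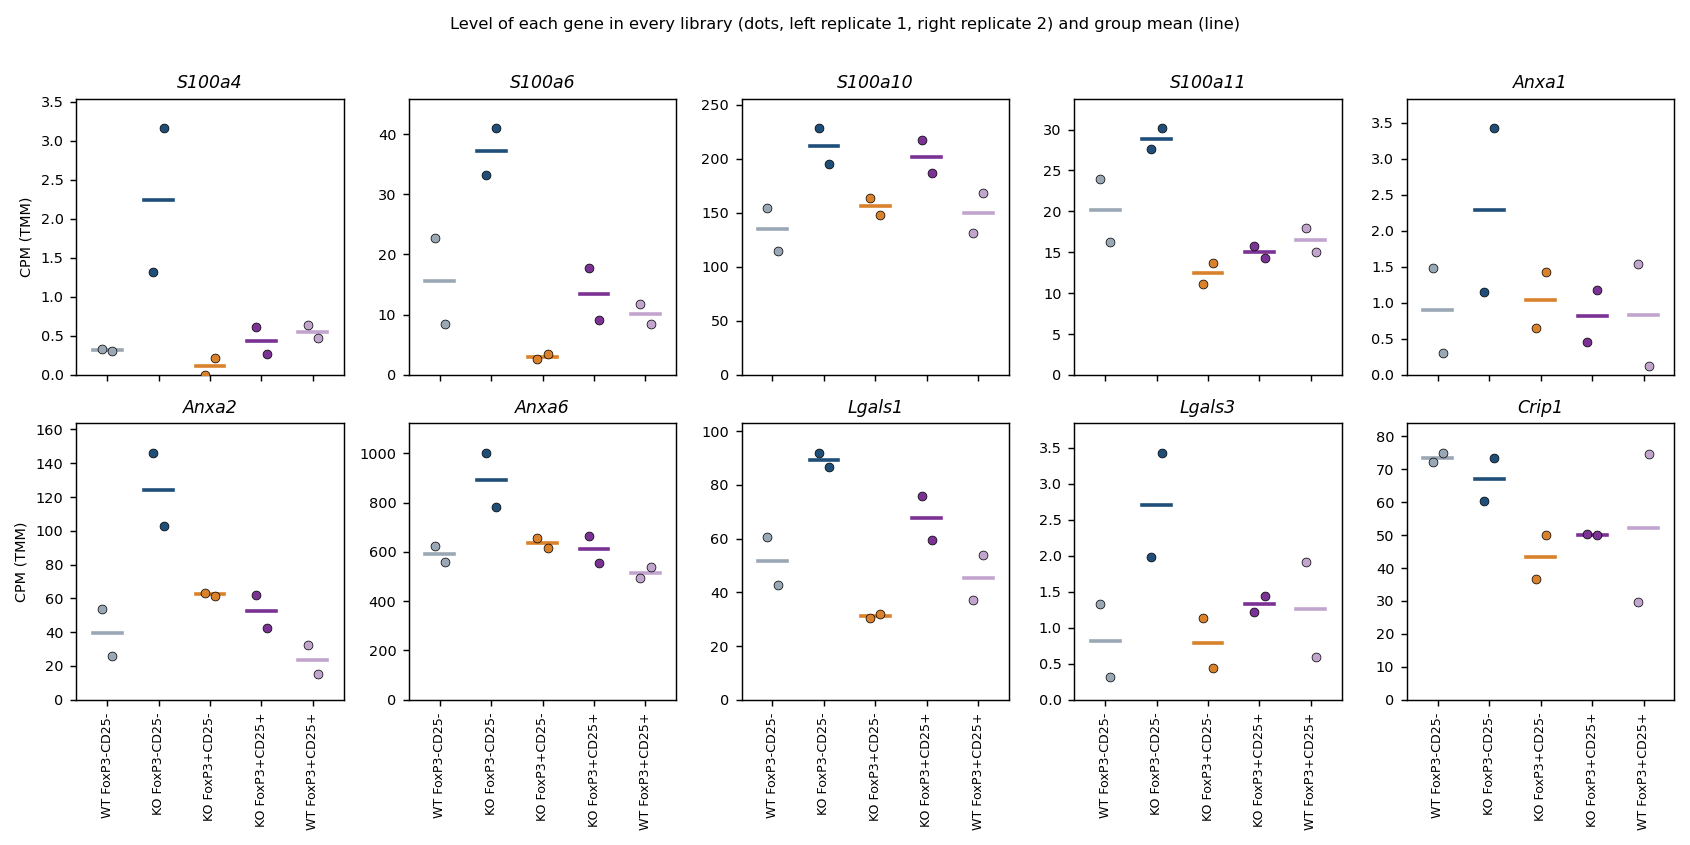
CPM (TMM scaled, linear axis from 0) of each gene in every library, with the 2 libraries of a group as dots (replicate 1 at the left) and their mean as a line. *S100a6* and *Lgals1* are at their lowest in both KO FoxP3+CD25- libraries (2.59 and 3.50 CPM, and 30.4 and 32.1 CPM), and both KO FoxP3-CD25- libraries lie above all others for *S100a6*.

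In the KO spleen, the aberrant FoxP3+CD25- cells were compared with FoxP3-CD25- cells, which asks how cells that express *Foxp3* without CD25 differ from conventional T cells of the same mice. *S100a6*, *S100a11* and *Lgals1* were lower in the FoxP3+CD25- cells, by more than 2-fold each, whereas *S100a10* and the annexins did not pass the test. *S100a6*, whose product binds calcium and several annexins, was 2.59 and 3.50 CPM in the KO FoxP3+CD25- libraries and 33.2 and 41.0 CPM in the KO FoxP3-CD25- libraries. The groups did not overlap, and the level was 11.9-fold lower (log2 fold change -3.57, SE 0.50, FDR = 0.00505 by edgeR's quasi-likelihood test with Benjamini-Hochberg adjustment). *Lgals1*, which encodes the secreted lectin galectin-1, was 30.4 and 32.1 CPM against 91.8 and 86.6 CPM. It was 2.85-fold lower (log2 fold change -1.51, SE 0.21, FDR = 0.00505), and the libraries within each group differed little.

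*S100a11*, the partner of ANXA1, was 11.2 and 13.7 CPM against 27.6 and 30.2 CPM, 2.31-fold lower (log2 fold change -1.21, SE 0.22, FDR = 0.0210). *S100a4*, which encodes a regulator of non-muscle myosin, had 0 and 2 counts, where the KO FoxP3-CD25- libraries had 8 and 24. Summed over the libraries this is 18.0-fold lower (exact 95% interval 4.59 to 155, for counting error only), with a fitted log2 fold change of -4.01 (SE 0.86, FDR = 0.0363) that depends on the prior count. Thus 4 of the 10 genes were called lower and none higher, or 3 of 9 without *S100a4*, where 1.35% of all genes tested were called lower.

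The remaining 6 genes had negative fold changes that did not pass the test. *Anxa2* was 63.4 and 61.6 CPM against 146 and 103 CPM (log2 fold change -0.99, SE 0.36, FDR = 0.299), and *Anxa6*, the largest annexin, was 657 and 614 CPM against 1001 and 783 CPM (log2 fold change -0.49, SE 0.14, FDR = 0.152). For both annexins replicate 1 was the higher library in both groups. *S100a10* (-0.44), *Crip1* (-0.62), *Lgals3* (-1.92) and *Anxa1* (-1.11) had FDR values of 0.337 to 0.813. The libraries of the 2 groups did not overlap, with KO FoxP3+CD25- lower, for 9 of 10 genes, all but *Anxa1*, beside 20.1% of all genes tested. The median log2 fold change of the 10 genes was -1.16, or -1.11 without *S100a4*, beside 0.01 over all genes.

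With the mouse as a replicate block, 6 of the 10 genes were called, *S100a4* among them, beside 5.7% of all genes. The genes added were *Anxa2* (log2 fold change -0.96, SE 0.12, FDR = 0.000835, within a range of 0.000835 to 0.795 over the alternatives) and *Anxa6* (-0.48, SE 0.09, FDR = 0.0107, range 0.0107 to 0.725). Leaving out either KO FoxP3+CD25- library left 0 genes called. In those fits, which left a single library in the group, fewer of all genes were called too. With DESeq2 3 genes were called, *S100a4* being lost, and 2.65% of all genes. The *S100a4* call was also lost with the legacy test, in a fit of the compared libraries alone, which called *Anxa2* in its place, without KO FoxP3-CD25- replicate 2, without either WT FoxP3-CD25- library and without either KO FoxP3+CD25+ library, and the *S100a11* call was lost without either KO FoxP3-CD25- library. Markers of CD8 T and NK cells summed to 13.9 and 20.2 CPM in the KO FoxP3+CD25- libraries and 31.1 and 44.3 CPM in the KO FoxP3-CD25- libraries, and their part in the result was not tested. Of the 6 markers, *Eomes*, which CD4 effector cells can also express, was 3.07 and 1.86 CPM against 10.4 and 19.4 CPM, and *Cd8b1* was 8.24 and 14.1 CPM against 13.2 and 12.8 CPM. Myeloid markers, whose cells are rich in S100 and annexin transcripts, summed to 22.6 and 25.9 CPM and to 22.5 and 23.5 CPM, and 9 of the 13 were under 1 CPM in every library.

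**Figure D3:**
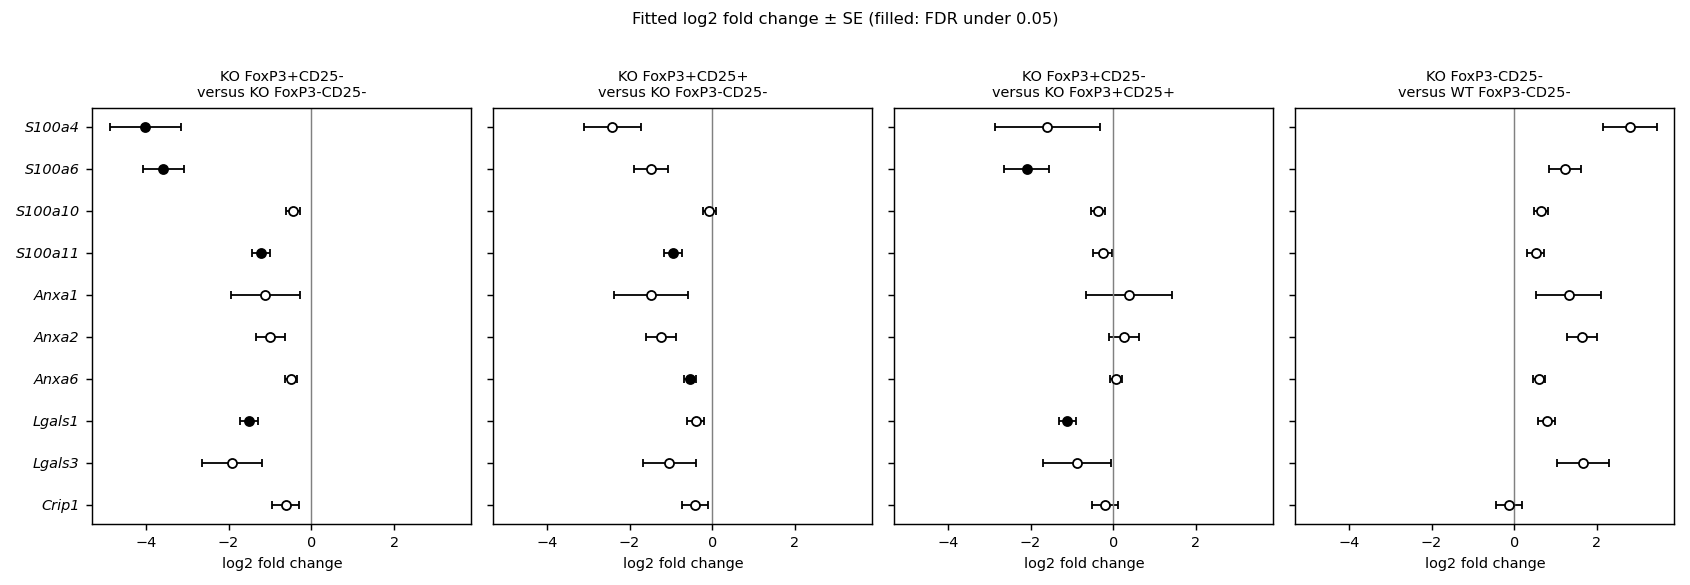
Fitted log2 fold changes with their SE for the 10 genes in 4 comparisons, with filled dots for FDR under 0.05 (quasi-likelihood test over 13796 genes). In the first panel all 10 dots lie below 0 and 4 are filled, and in the last panel 9 of 10 lie above 0 and none is filled.

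Treg-gated cells of the KO mice were lower than KO FoxP3-CD25- cells in *S100a11* and *Anxa6*, and all 10 fold changes were negative, with a median of -0.995 on the log2 scale, or -0.95 without *S100a4*. *S100a11* was 15.7 and 14.3 CPM in KO FoxP3+CD25+ libraries against 27.6 and 30.2 CPM (log2 fold change -0.95, SE 0.21, FDR = 0.0237), and *Anxa6* was 666 and 556 CPM against 1001 and 783 CPM (log2 fold change -0.55, SE 0.14, FDR = 0.0476). In both genes the groups did not overlap. Hence 2 of 10 genes were called lower, beside 2.81% of all genes. *S100a6* was 17.7 and 9.17 CPM against 33.2 and 41.0 CPM (log2 fold change -1.48, SE 0.41, FDR = 0.0600). *Anxa2* was 62.1 and 42.7 CPM against 146 and 103 CPM (log2 fold change -1.25, SE 0.36, FDR = 0.0747). *S100a4* had 4 and 2 counts against 8 and 24, which is 5.55-fold lower (exact 95% interval 2.29 to 16.2, fitted FDR = 0.0603).

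With the mouse as a replicate block, 5 of 10 genes were called in this comparison, beside 12.0% of all genes. *Anxa2* (FDR = 6.5e-05, range over the alternatives 6.5e-05 to 0.412), *S100a6* (FDR = 0.00398, range 0.00398 to 0.397) and *S100a4* (FDR = 0.0275, range 0.0172 to 0.528), the gene that passed the filter through KO FoxP3-CD25- libraries alone, were added. Leaving out either KO FoxP3+CD25+ library left 0 genes called. Without either KO FoxP3+CD25- library *S100a11* alone was called, without KO FoxP3-CD25- replicate 1 *S100a4* alone, and without KO FoxP3-CD25- replicate 2 *Anxa6* alone. Leaving out any WT library gave 3 genes, with *Anxa2* among them. CD8 T and NK cell markers summed to 20.8 CPM in both KO FoxP3+CD25+ libraries against 31.1 and 44.3 CPM, with 1 of the 5 tested called lower. Myeloid markers summed to 17.7 and 24.1 CPM against 22.5 and 23.5 CPM, with 1 of the 3 tested called lower. Their part in the result was not tested.

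Between the FoxP3+ populations of the KO, which differ by the CD25 gate, the FoxP3+CD25- cells had the lower *Lgals1* and *S100a6*. *Lgals1* was 30.4 and 32.1 CPM against 75.8 and 59.4 CPM in KO FoxP3+CD25+ cells, 2.16-fold lower (log2 fold change -1.11, SE 0.21, FDR = 0.00859). *S100a6* was 2.59 and 3.50 CPM against 17.7 and 9.17 CPM, 4.25-fold lower (log2 fold change -2.09, SE 0.54, FDR = 0.0432). In neither gene did the groups overlap. These were 2 of 10 genes called lower, beside 4.76% of all genes. *Anxa2*, at 63.4 and 61.6 CPM against 62.1 and 42.7 CPM, had overlapping groups (0.26, SE 0.36, FDR = 0.795), as did *Anxa6* (0.06, SE 0.14, FDR = 0.894). Both calls were lost without either KO FoxP3+CD25- library and without KO FoxP3+CD25+ replicate 1, and *S100a6* was also lost without either WT FoxP3+CD25+ library or KO FoxP3-CD25- replicate 2.

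The effect of the genotype was compared within each gate. In the non-Treg gate no gene of the 10 passed the test, beside 0.145% of all genes. A positive fold change was seen for 9 of 10, or 8 of 9 without *S100a4*. For 8 of 10, *S100a4* among them, both KO FoxP3-CD25- libraries were above both WT FoxP3-CD25- libraries, beside 19.0% of all genes. An unadjusted p under 0.05 was reached by 8 of the 10, or 7 of 9 without *S100a4*, beside 8.02% of all genes. *Anxa2*, the annexin of the S100A10 complex, was 146 and 103 CPM in KO and 53.6 and 25.9 CPM in WT FoxP3-CD25- cells, 3.10-fold higher (log2 fold change 1.63, SE 0.36, FDR = 0.159). *S100a4* had 32 counts in KO and 7 in WT, a ratio of 7.30 (exact 95% interval 3.16 to 19.6, fitted FDR = 0.161). *S100a6* was 33.2 and 41.0 CPM against 22.7 and 8.46 CPM (log2 fold change 1.23, SE 0.39, FDR = 0.362).

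*S100a10*, *Anxa6* and *Lgals1* had smaller and tighter differences in the same direction. *S100a10* was 228 and 195 CPM in KO against 155 and 115 CPM in WT FoxP3-CD25- cells (log2 fold change 0.65, SE 0.17, FDR = 0.233). *Anxa6* was 1001 and 783 CPM against 626 and 559 CPM (0.59, SE 0.14, FDR = 0.208), and *Lgals1* was 91.8 and 86.6 CPM against 60.6 and 42.8 CPM (0.78, SE 0.20, FDR = 0.228). The difference for *S100a11* was 0.52 (SE 0.20, FDR = 0.523), and *Crip1*, at 60.4 and 73.5 CPM against 72.1 and 74.9 CPM, went the other way (-0.13, SE 0.31, FDR = 0.985). The median over the 10 genes was 1.01 on the log2 scale, or 0.78 without *S100a4*, beside -0.00 over all genes. In all of these genes except *Crip1* WT replicate 1, the mouse that differed in sex, was the higher WT library. Without its libraries the median was 1.60 and *Anxa2* was called (log2 fold change 2.26, SE 0.28, FDR = 0.0485, range over the alternatives 0.00509 to 0.654), and without WT FoxP3-CD25- replicate 2 the median was 0.63. Both medians with libraries left out include *S100a4*. Without it, the median of 1.60 becomes 1.06, the value of *Lgals1*. The part of sex in the differences between KO and WT FoxP3-CD25- cells was not tested.

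In the Treg gate no gene of the 10 was called between KO and WT, beside 0.00725% of all genes, and 3 of 10 reached an unadjusted p under 0.05, beside 4.3% of all genes. These were *Anxa2* (62.1 and 42.7 CPM in KO against 32.2 and 15.1 CPM in WT, log2 fold change 1.15, SE 0.38), *Lgals1* (75.8 and 59.4 CPM against 37.1 and 53.7 CPM, 0.57, SE 0.20) and *S100a10* (217 and 187 CPM against 131 and 168 CPM, 0.43, SE 0.17), all with FDR = 0.9999. Every KO library was above every WT library for 4 of the 10 genes, these 3 and *Anxa6*. The share of all genes that separate in this way is not given here, so the count is only a description. The difference between the genotypes in the step from FoxP3-CD25- to FoxP3+CD25+ cells was tested by its own term, and 0 of 10 genes and 0.0% of all genes were called by edgeR. At an unadjusted p under 0.05 there were 1 of the 10 genes, *S100a4*, or 0 of 9 without it, and 4.97% of all genes, and DESeq2 called 0 of the 10 genes and 0.167% of all genes.

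In WT mice, FoxP3+CD25+ cells were not called different from FoxP3-CD25- cells for any of the 10 genes, beside 10.9% of all genes, and 0 of 10 reached an unadjusted p under 0.05, beside 21.9% of all genes. *Anxa2* was 32.2 and 15.1 CPM in WT FoxP3+CD25+ against 53.6 and 25.9 CPM in WT FoxP3-CD25- cells (log2 fold change -0.76, SE 0.38, FDR = 0.282). In each mouse the Treg library was the lower, and with the mouse as a replicate block *Anxa2* was called (-0.75, SE 0.14, FDR = 0.00242, range over the alternatives 0.00242 to 0.902), beside 19.1% of all genes. For *Crip1*, WT FoxP3+CD25+ replicate 1 (29.7 CPM) stood below the other 3 WT libraries (72.1 to 74.9 CPM), and without WT FoxP3+CD25+ replicate 2 *Crip1* was called lower.

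Set against WT cells, both KO FoxP3+CD25- libraries were below every WT library for *S100a6*, *Lgals1* and *S100a11*. They were above every WT library for *Anxa2*. *S100a4*, with 0 and 2 counts against 3 to 5, was also below, at the edge of detection. Against WT FoxP3-CD25- cells no gene of the 10 was called, beside 0.768% of all genes, and 4 reached an unadjusted p under 0.05, beside 8.8% of all genes. *S100a6* came nearest, with 2.59 and 3.50 CPM against 22.7 and 8.46 CPM, 5.06-fold lower (log2 fold change -2.34, SE 0.52, FDR = 0.0834). *Lgals1* (-0.73, SE 0.21, FDR = 0.215), *S100a11* (-0.69, SE 0.21, FDR = 0.276) and *Crip1* (-0.76, SE 0.32, FDR = 0.510) were also below both WT libraries, while *Anxa2* was above both (0.64, SE 0.36, FDR = 0.741). *S100a6* was called without WT FoxP3-CD25- replicate 2 and *Crip1* without WT FoxP3+CD25+ replicate 1.

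Against WT FoxP3+CD25+ cells *Anxa2* was the 1 gene of the 10 that was called, and it was higher, beside 3.88% of all genes called higher. It was 63.4 and 61.6 CPM in KO FoxP3+CD25- cells against 32.2 and 15.1 CPM, 2.65-fold higher (log2 fold change 1.40, SE 0.38, FDR = 0.0378). The call was lost without either KO FoxP3+CD25- library and without WT FoxP3+CD25+ replicate 2. DESeq2 did not call *Anxa2* either, and called *S100a6* lower in its place. *S100a6*, at 11.8 and 8.39 CPM in the WT Treg libraries, went the opposite way (-1.69, SE 0.55, FDR = 0.0816), as did *Lgals1* (-0.54, SE 0.21, FDR = 0.145). Without both libraries of WT replicate 1, *Anxa2* (2.04), *Lgals1* (-0.78) and *Crip1* (-0.78) were called. *Anxa2* was joined by *Crip1* without WT FoxP3+CD25+ replicate 1 alone and by *S100a6* without either WT FoxP3-CD25- library.

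The other members of the same families were counted next. Of the 18 S100 genes listed, 5 passed the filter, and the only one besides the 4 described was *S100a13*, which was not called in any comparison. The annexin list had 8 of 12 genes past the filter, of which *Anxa4* alone among the other 5 was called: it was 12.0 and 6.02 CPM in WT FoxP3+CD25+ against 2.48 and 1.24 CPM in WT FoxP3-CD25- cells (log2 fold change 2.22, SE 0.41, FDR = 0.00499), and lower in KO FoxP3+CD25- than in WT FoxP3+CD25+ cells (-2.09, SE 0.44, FDR = 0.0103). The first call was lost without WT FoxP3-CD25- replicate 2, and the second without WT FoxP3+CD25+ replicate 1 and without KO FoxP3+CD25- replicate 2. None of the other 4 galectin genes past the filter and neither of the other 2 *Crip* and *Csrp* genes was called.

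Genes for partners of these proteins were called in few cases. Of 13 past the filter, 1 was called in KO FoxP3+CD25- against KO FoxP3-CD25- cells: *Ahnak*, the scaffold bound by the S100A10 and ANXA2 complex, at 249 and 239 CPM against 950 and 1095 CPM (log2 fold change -2.07, SE 0.27, FDR = 0.00352). *Ahnak* was also lower than in KO FoxP3+CD25+ cells (-1.75, SE 0.26, FDR = 0.00234) and WT FoxP3+CD25+ cells (-2.12, SE 0.27, FDR = 0.000483). *Mgat5*, which encodes an enzyme that adds the glycan branches bound by galectins, was higher in FoxP3+CD25+ than in FoxP3-CD25- cells of both genotypes (1.02, SE 0.14, FDR = 0.000958 in WT, and 0.74, SE 0.15, FDR = 0.0122 in KO). *Spn*, which encodes the heavily glycosylated CD43, was lower in KO FoxP3+CD25+ than in KO FoxP3-CD25- cells (-0.70, SE 0.12, FDR = 0.00484). In KO the *Mgat5* call was lost without either KO FoxP3+CD25+ library and without KO FoxP3-CD25- replicate 2, and the *Spn* call without KO FoxP3+CD25+ replicate 2. *Ahnak* against KO FoxP3-CD25- cells was not called without KO FoxP3+CD25- replicate 2.

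The lists of effector and memory genes and of naive genes were drawn up with earlier results of these data known, so their counts are descriptions. Of 28 effector and memory genes outside the 10, 12 were called lower in KO FoxP3+CD25- against KO FoxP3-CD25- cells, beside 1.35% of all genes. None was called higher, and the list median was -0.96. The count was 5 without KO FoxP3+CD25- replicate 1, 1 (*Cd44*) without KO FoxP3+CD25- replicate 2, 6 without KO FoxP3-CD25- replicate 2 and 20 with the mouse as a replicate block, where 5.7% of all genes were called. *Cd44*, which encodes a hyaluronan receptor and marks antigen-experienced T cells, was 17.9 and 16.1 CPM against 148 and 157 CPM (log2 fold change -3.17, SE 0.22, FDR = 0.000158). *Itgb1* (-2.79, SE 0.34, FDR = 0.00277), which encodes the integrin beta-1 chain, *Vim* (-0.75, SE 0.11, FDR = 0.00845), which encodes the intermediate filament vimentin, and *Capg* (-0.98, SE 0.21, FDR = 0.0433), which encodes an actin-capping protein, were lower as well. The *Vim* call was lost without either KO FoxP3+CD25- library and without KO FoxP3-CD25- replicate 1, and the *Capg* call without any 1 of the 6 KO libraries. *Tbx21* (-3.98), *Cxcr3* (-3.34) and *Nkg7* (-3.73), genes of T helper 1 and cytotoxic cells, had the largest differences of the list. Of these, *Nkg7* was not called without either KO FoxP3+CD25- library or without KO FoxP3-CD25- replicate 2. *Emp3* did not differ detectably (-0.09, SE 0.23, FDR = 0.958). In KO FoxP3+CD25+ against KO FoxP3-CD25- cells 6 of the 28 genes were called lower and 2 higher, beside 2.81% and 3.52% of all genes, and in KO FoxP3+CD25- against WT FoxP3-CD25- cells 5 were called lower, beside 0.413% of all genes, *Cd44* among them (-2.45, SE 0.22, FDR = 0.000922).

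Of 20 naive T-cell genes, 0 were called in KO FoxP3+CD25- against KO FoxP3-CD25- cells by edgeR, with a list median of 0.20. At an unadjusted p under 0.05 there were 7, beside 1381 of all 13796 genes, DESeq2 called 2, beside 2.65% of all genes, and with the mouse as a replicate block 6 were called higher and 1 lower, beside 5.7% of all genes. *Ccr7* (0.08, SE 0.12), which encodes a chemokine receptor for homing to lymph nodes, *Klf2* (0.08, SE 0.18), *Lef1* (0.36, SE 0.14) and *Tcf7* (-0.29, SE 0.12) had FDR values of 0.385 to 0.955. Against WT FoxP3+CD25+ cells, 14 of the 28 effector and memory genes were called lower in KO FoxP3+CD25- cells and 2 higher. Of the 20 naive genes, 11 were called higher there. Of all genes, 7.34% were called lower and 3.88% higher. The lists also differed between the WT gates. In WT FoxP3+CD25+ against WT FoxP3-CD25- cells, 10 of the 28 effector and memory genes were called higher and 2 lower. There 1 of the 20 naive genes was called higher and 10 lower, beside 10.9% of all genes called either way. The part of this gate difference in the counts against WT FoxP3+CD25+ cells was not tested. Between KO and WT FoxP3-CD25- cells 0 of the 28 effector and memory genes were called by edgeR, beside 0.145% of all genes. DESeq2 called 4 of them, beside 0.71% of all genes. At an unadjusted p under 0.05 there were 12, beside 8.02% of all genes. The list median was 0.51, with *Cd44* at 0.72 (SE 0.19, FDR = 0.252), and *Ahnak* was at 0.99 (SE 0.26, FDR = 0.235). In that comparison 1 of the 20 naive genes was called, *Id3*, which was higher (1.19, SE 0.18, FDR = 0.0326), and the call was lost without any 1 of the 6 KO libraries and without either WT FoxP3-CD25- library.

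**Figure D4:**
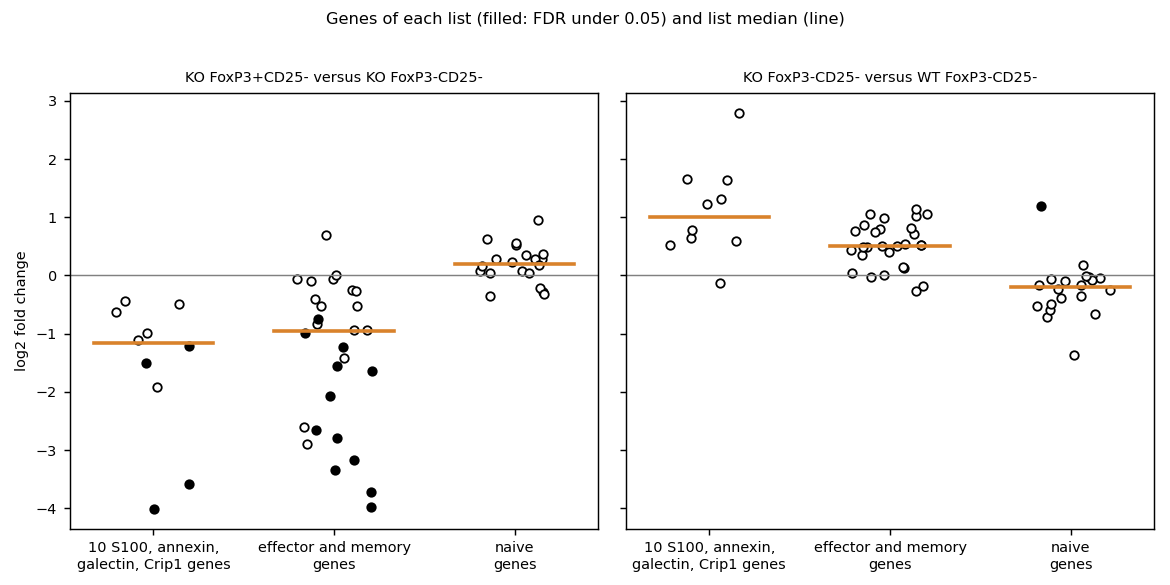
Log2 fold changes of the 10 genes, the 28 effector and memory genes and the 20 naive genes (dots, filled for FDR under 0.05, spread sideways at random) with each list's median (line), in KO FoxP3+CD25- against KO FoxP3-CD25- cells (left) and KO against WT FoxP3-CD25- cells (right). In the left panel the medians are -1.16, -0.96 and 0.20, and in the right panel the 10 genes have a median of 1.01 with none filled.

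The 10 genes followed each other to different degrees. Correlated with the median of the other 9 genes over the 10 libraries, *S100a11* (r = 0.84), *S100a6* (0.83), *S100a4* (0.82) and *Lgals1* (0.76) were closest, and *Crip1* (0.27) and *Anxa1* (0.49) farthest. Among 10421 other genes with a mean of at least 5 CPM, those most like the median of the 10 were *Ap1s2* (r = 0.92), *Calm3* (0.91), *Rap1gap2* (0.91), *St7l* (0.89), *Chaf1b* (0.88) and *Efhd2* (0.88), and those least like it were *Donson* (-0.94), *Nipal1* (-0.93) and *Gm43457* (-0.91). With a prior count of 0.5 in place of 2, 5 of the 6 highest were shared. The level of *Rap1gap2* was 34.6 ± 3.49 CPM in the KO FoxP3-CD25- group and 3.48 ± 0.81 CPM in the KO FoxP3+CD25- group (mean ± SD, n = 2 each). The 10 libraries share mice and gates, so these correlations are descriptions of 10 points and not tests.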

How the data were processed

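Spleen CD4+ T cells were sorted and sequenced by the authors. They used HISAT2 (2.1.0) for alignment to mm10 and HTSeq for counting, the latter as version 0.11.1 in the submitters' processing notes. The strand setting and annotation are not given in the sources used here. The authors deposited raw counts for each gene symbol, with neither normalization nor filter. Reads on genes were 26.0% to 28.5% of all reads, those on no gene 34.4% to 42.5% and those not unique 24.9% to 31.7%, and these tallies stayed out of library sizes and tests. Positions and exon lengths were taken from GENCODE M21 (GRCm38).

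The comparisons were run in edgeR (4.0.16, under R 4.3.3): filterByExpr with a minimum count of 10, TMM factors, 1 model of all 10 libraries with a mean for each of 5 groups, and two-sided quasi-likelihood F-tests with Benjamini-Hochberg adjustment over all genes at FDR 0.05. The standard error (SE) was obtained by dividing the size of a log2 fold change by the square root of F. CPM use TMM factors. Intervals and floors cover counting error only. A pair of libraries against another pair cannot go below an exact permutation p of 0.333, so no test of single values was made. The steps were tested on simulated data. The 10 genes and all lists were chosen with earlier results of these data known, and the promoter motifs after the sequences were seen.

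All 10 genes are named. From the family lists, other genes are named where called, from the lists of partners, effector and memory genes and naive genes *Cd44*, *Itgb1*, *Ahnak*, *Vim*, *Emp3*, *Capg*, *Ccr7*, *Klf2*, *Lef1* and *Tcf7* and up to 5 others of lowest p-value in a list and comparison, and for likeness the 6 highest and 3 lowest Pearson correlations between log2 CPM (prior count 2) and the median of the centred log2 CPM of the 10 genes. *Satb1*, *Foxp3* and the sex-linked genes serve to check labels. An item that the rule would name is not reported here.

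Replicate numbers came from the labels. Deviations from the group means of libraries with the same number correlated at 0.30 between the WT groups and 0.42 to 0.44 among the KO groups, and at -0.01 to 0.11 across genotypes, over 13796 genes. They were therefore read as mice within a genotype. Alternatives were RLE factors or library size alone, other filters, DESeq2 (1.42.0), edgeR's legacy and likelihood ratio tests, a fit of the compared libraries alone, replicate blocks, FDR 0.01, and libraries left out.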

Additional observations from a re-analysis of the deposited data

How the results depend on the processing

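Counts of the 10 genes called depended on the setting more than their fold changes did. Counts over all genes moved too. Between KO and WT FoxP3-CD25- cells 20 of all genes were called in the main fit and 91 with no filter. DESeq2 called 98 there, the likelihood ratio test 143 and the replicate block by number 108. For KO FoxP3+CD25- against KO FoxP3-CD25- cells these were 230, 411, 366, 514 and 403, with 787 for the replicate block by mouse. In KO FoxP3+CD25- against KO FoxP3-CD25- cells the 4 genes became 5 with no filter, 3 with DESeq2 or the legacy test, which lost *S100a4*, 2 at FDR 0.01, and 0 to 4 with libraries left out, and the compared libraries alone gave *Anxa2* in place of *S100a4*. In KO FoxP3+CD25+ against KO FoxP3-CD25- cells the 2 genes became 1 with RLE factors, 4 with no filter, 5 with the likelihood ratio test, 0 at FDR 0.01 and 0 to 3 with libraries left out, and 3 with DESeq2 or the compared libraries alone. The replicate block by mouse gave 5 genes there, 1 in WT FoxP3+CD25+ against WT FoxP3-CD25- cells (0 to 1 with libraries left out), 6 in KO FoxP3+CD25- against KO FoxP3-CD25- cells and no other change. The replicate block by number gave the same counts, and in addition 2 genes (*Anxa2* and *Anxa6*) between KO and WT FoxP3-CD25- cells and 1 (*S100a6*) in KO FoxP3+CD25- against WT FoxP3-CD25- cells. Between KO and WT FoxP3-CD25- cells 2 genes were called with no filter, 3 with DESeq2 or the likelihood ratio test, 1 with the compared libraries alone and 0 to 1 with libraries left out. In KO FoxP3+CD25- against WT FoxP3-CD25- cells no filter, DESeq2 and the likelihood ratio test each called 1, and libraries left out 0 to 1. Against WT FoxP3+CD25+ cells DESeq2 called *S100a6* in place of *Anxa2*, and the 1 gene became 2 with no filter, the likelihood ratio test or the compared libraries alone, 0 at FDR 0.01 and 0 to 3 with libraries left out. Against KO FoxP3+CD25+ cells the 2 genes became 1 at FDR 0.01 and 0 to 2 with libraries left out. KO against WT FoxP3+CD25+ cells and the difference between the genotypes had 0 genes in every setting run. Among the fold changes followed across the alternatives, *Crip1* between KO and WT FoxP3-CD25- cells alone changed sign, with -0.28 to 0.0084 over the libraries left out. Some that were not followed also changed sign without both libraries of WT replicate 1. *Lgals3* in KO FoxP3+CD25- against WT FoxP3-CD25- cells went from -0.26 to 1.18. *Lgals1* in WT FoxP3+CD25+ against WT FoxP3-CD25- cells went from -0.19 to 0.33. Where leaving out a library left 1 in a group, that library was assumed to vary like the other groups. In comparisons within KO, leaving out a library of either compared group also lowered the number of all genes called. The cause of these changes was not tested. *S100a4*, *Anxa1* and *Lgals3* are limited by depth, and *S100a4* also by the exon bases it shares with *Gm42674*.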
